A study of Mus musculus with 16 samples.

Results

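The genes described here make cholesterol from acetyl units and shape the fatty acids of skin lipid. They were given as a list of 29 mouse genes: 23 of the sterol pathway (mevalonate steps, squalene and sterol ring steps, and genes of SREBP regulation and sterol transport) and 6 of sebaceous and fatty acid metabolism. A gene was measured through the probe set with the highest mean among those annotated to that gene symbol alone, and it had to lie above a log2 value of 4 on 2 or more arrays. By this rule 27 of the 29 entered the tests, among 12087 genes in all. They were 22 of the 23 sterol pathway genes and 5 of the 6 others; Acat2 and Soat1 were not analysed here. All 27 exceeded 4 in all 16 arrays, and the lowest value of any of them was 4.08, against at most 2.43 in control probe sets that have no target.

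Dorsal skin of female C57/B6 mice, 8.5 weeks old at the first biopsy, was profiled on Affymetrix arrays from whole-skin RNA. Each of 9 mice gave a biopsy on day 0, before any treatment (n = 9). Skin was then treated topically each day for 4 days with DMSO alone (vehicle), with ruxolitinib or with tofacitinib, both inhibitors of Janus kinases, and biopsied again on day 5. The day-5 arrays came from mice 2 and 3 for vehicle (n = 2), mice 4 and 6 for ruxolitinib (n = 2), and mice 7, 8 and 9 for tofacitinib (n = 3). All day-5 skin had therefore also received daily application and had been biopsied before; whether the second biopsy lay near the first is not given in the sources used here, nor are the inhibitor doses. The sample titles write C57/B7, where the other labels write C57/B6. The tofacitinib array of mouse 7 carries a description that names ruxolitinib, while its other labels name tofacitinib, so tofacitinib calls that change without it are given both ways.

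Cholesterol synthesis runs from acetyl-CoA through mevalonate and isoprenoid units to squalene, which is closed into a ring and trimmed to cholesterol in a chain of steps. The transcription factors SREBP-1 and SREBP-2, encoded by Srebf1 and Srebf2, are held in the endoplasmic reticulum by INSIG and SCAP proteins when sterol is plentiful, and switch on most genes of the pathway when it is scarce. In skin, keratinocytes make cholesterol for the water barrier of the stratum corneum, and sebaceous glands make wax esters, triglycerides and long-chain fatty acids for sebum.

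Promoter sequence was taken from RefSeq (build GRCm38.p6) as the 250 bases before each annotated start; 21 of the 27 genes had an entry, with 26 starts. Fads1, Fdft1, Sqle, Elovl3, Stard4 and Fdps had none. Windows were searched on both strands for 4 motifs, none of which contains another: the CCAAT box (CCAAT, bound by NF-Y, a partner of SREBP), the GC box (GGGCGG, bound by Sp1), a sterol regulatory element form (TCACNCCAC) and the palindromic E-box (CACGTG). The CCAAT box was found for 18 of 18 sterol pathway genes and for 0 of 3 sebaceous and fatty acid genes (Fads2, Scd3 and Aacs). It stood in 40.0% of the tested genes that have an entry, and in 33.8% of all windows. The GC box was found for 17 of 18 and 1 of 3, against 63.6% of tested genes and 32.7% of all windows. The sterol regulatory element form was found in Hmgcs1 alone, against 1.25% and 1.05%. The E-box was found in Dhcr7, Hsd17b7, Insig1 and Sc5d, against 9.90% and 6.02%. A match describes these letters and is no evidence of binding, and a window without one may hold other forms.

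The 7 windows below contrast 5 sterol pathway genes with 2 fatty acid genes whose expression changed in the data. Capitals mark CCAAT boxes on either strand (ATTGG on the strand shown for the reverse) and, in Hmgcs1, the sterol regulatory element form. Each is read 5′ to 3′ toward its gene.
Hmgcs1 (chr13:119690101-119690350, plus strand): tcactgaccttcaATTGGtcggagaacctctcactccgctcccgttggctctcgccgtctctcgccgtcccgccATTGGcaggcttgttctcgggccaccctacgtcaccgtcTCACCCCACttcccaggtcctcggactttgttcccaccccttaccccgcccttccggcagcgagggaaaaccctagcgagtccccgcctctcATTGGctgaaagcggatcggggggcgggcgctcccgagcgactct
Mvk (chr5:114444019-114444268, plus strand): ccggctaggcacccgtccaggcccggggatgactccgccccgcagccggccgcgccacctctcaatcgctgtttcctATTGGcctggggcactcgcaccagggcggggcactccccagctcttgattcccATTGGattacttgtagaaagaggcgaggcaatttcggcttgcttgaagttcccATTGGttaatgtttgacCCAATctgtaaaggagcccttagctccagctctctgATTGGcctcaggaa
Idi1 (chr13:8885356-8885605, plus strand): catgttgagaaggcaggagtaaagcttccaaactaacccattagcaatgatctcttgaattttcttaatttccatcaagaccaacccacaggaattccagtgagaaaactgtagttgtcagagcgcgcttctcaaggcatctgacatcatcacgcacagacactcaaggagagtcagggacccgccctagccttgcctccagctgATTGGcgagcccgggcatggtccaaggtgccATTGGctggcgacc
Cyp51 (chr5:4104698-4104947, minus strand): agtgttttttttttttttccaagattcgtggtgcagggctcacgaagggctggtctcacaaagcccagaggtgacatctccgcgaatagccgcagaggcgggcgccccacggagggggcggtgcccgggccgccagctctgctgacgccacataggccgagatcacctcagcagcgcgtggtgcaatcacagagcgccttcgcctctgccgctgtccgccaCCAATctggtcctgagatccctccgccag
Srebf2 (chr15:82147019-82147268, plus strand): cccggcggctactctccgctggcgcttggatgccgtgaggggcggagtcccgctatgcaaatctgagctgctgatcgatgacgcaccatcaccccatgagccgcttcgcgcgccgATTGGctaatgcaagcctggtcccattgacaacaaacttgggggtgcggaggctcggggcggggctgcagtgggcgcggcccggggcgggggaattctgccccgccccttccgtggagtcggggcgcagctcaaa
Fads2 (chr19:10101504-10101753, minus strand): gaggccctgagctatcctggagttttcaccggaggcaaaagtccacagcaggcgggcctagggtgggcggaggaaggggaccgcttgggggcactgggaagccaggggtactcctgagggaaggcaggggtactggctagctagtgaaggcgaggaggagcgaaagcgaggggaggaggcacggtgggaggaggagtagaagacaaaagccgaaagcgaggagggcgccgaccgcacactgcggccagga
Scd3 (chr19:44203038-44203287, plus strand): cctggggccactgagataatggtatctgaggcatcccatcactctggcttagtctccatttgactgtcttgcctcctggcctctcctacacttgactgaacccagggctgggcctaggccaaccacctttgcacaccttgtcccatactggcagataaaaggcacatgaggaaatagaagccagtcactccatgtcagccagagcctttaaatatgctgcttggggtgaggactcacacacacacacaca
Mvk held 5 CCAAT boxes in its window, Hmgcs1 held 3, Idi1 held 2, and Cyp51 and Srebf2 held 1 each. All 18 sterol pathway genes with an entry held this box, so its presence cannot be related to direction among them. As described below, Mvk (not called under ruxolitinib) and Srebf2 were lower at day 5, while Idi1 and Cyp51 were higher under the inhibitors.

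**Figure D1:**
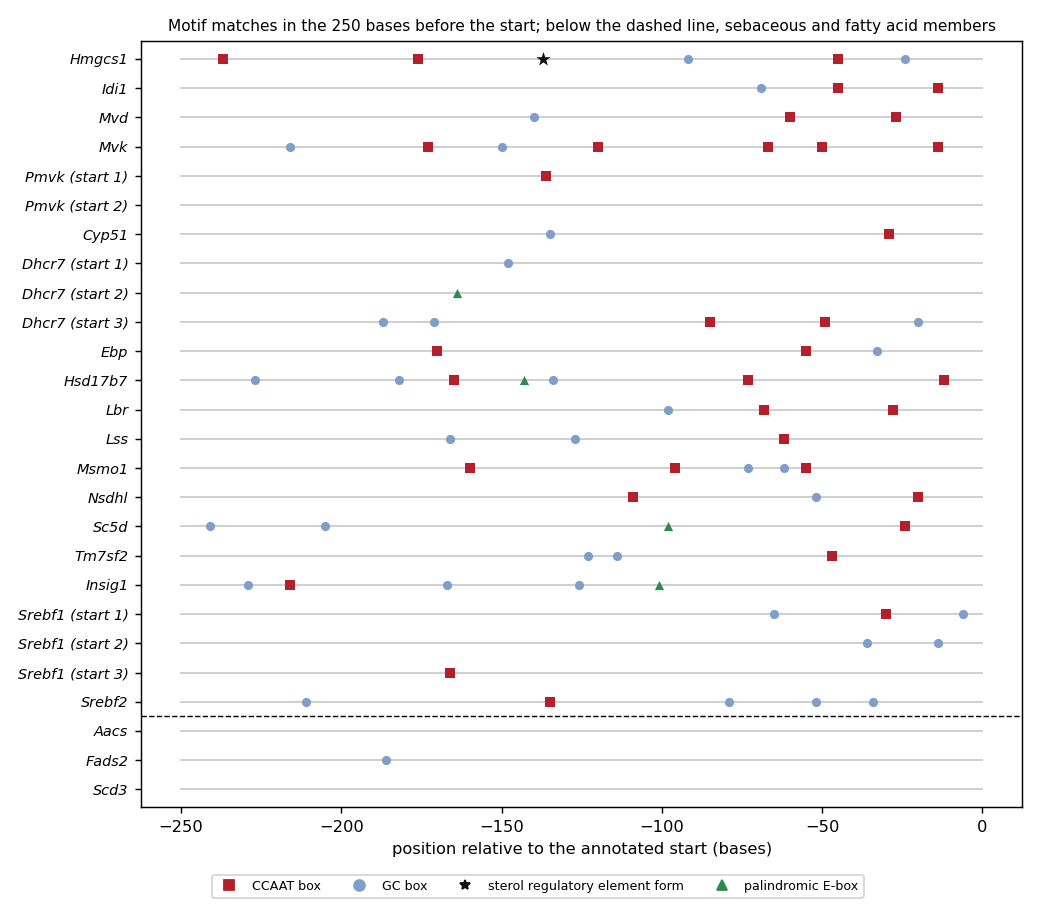
Position of motif matches (bases relative to the annotated start, 0 at the right end) in the 26 promoter windows of 21 genes; a line is a window, squares are CCAAT boxes, circles GC boxes, triangles E-boxes and the star the sterol regulatory element form. Squares stand in at least 1 window of all 18 sterol pathway genes above the dashed line and in none of the 3 genes below it.

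Values are log2 expression values, so a difference of 1 is a doubling. Differences are given with their standard error from 1 limma fit across all genes and arrays (groups of 9, 2, 2 and 3), and a gene was called changed at an adjusted p (Benjamini-Hochberg over the 12087 genes) under 0.05. The 3 comparisons with day 0 share the same 9 day-0 arrays, so likeness between them is not independent evidence. In whole skin, fewer cells of a type and less RNA per cell cannot be told apart.

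The sterol pathway did not move as a block between day 0 and day 5. The arms gave different but overlapping sets of called genes, with Fdps, Srebf1 and Srebf2 called lower in each. A call in some arms and not in others is no test between arms, and none of the 27 genes was called between the day-5 groups. Under vehicle 9 of 22 sterol pathway genes fell and 0 rose, while the background of all genes was 28.9% called lower and 22.2% called higher. Under ruxolitinib 3 rose and 3 fell, against a background of 12.5% higher and 21.4% lower. Under tofacitinib 4 rose and 5 fell, against 22.7% higher and 27.4% lower. Under both inhibitors these counts lay near or below the shares of all genes. The median log2 difference of the 22 genes was -0.29 under vehicle, 0.10 under ruxolitinib and -0.06 under tofacitinib, where the median of all genes was -0.05, -0.03 and -0.02. With the mouse as a fixed replicate block, the sterol pathway counts became 5 fallen under vehicle, 0 called under ruxolitinib, and 5 risen and 3 fallen under tofacitinib. The same block took the calls over all genes under ruxolitinib from 4104 to 1324. Counts of called sterol pathway genes also depended on single arrays: without the ruxolitinib array of mouse 4 the count was 2, without the tofacitinib array of mouse 9 it was 5, and without that of mouse 7 it was 11.

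**Figure D2:**
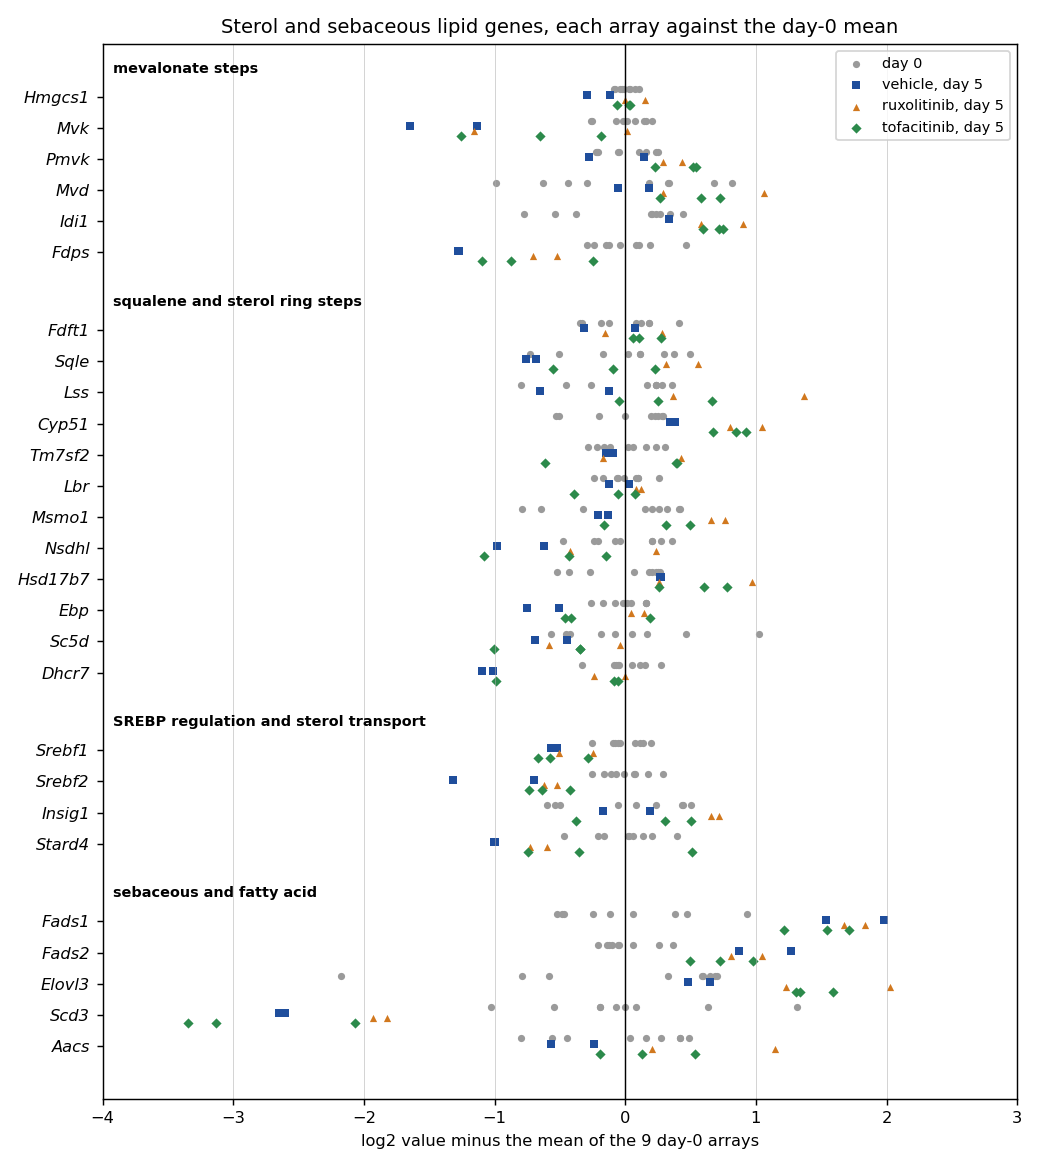
Log2 value of each array minus the mean of the 9 day-0 arrays (horizontal axis) for the 27 genes, ordered by role; circles are day-0 arrays, squares vehicle, triangles ruxolitinib and diamonds tofacitinib at day 5. Mvk, Fdps, Srebf1, Srebf2 and Scd3 lie mostly left of 0 at day 5, and Fads1, Fads2 and Cyp51 lie right of it. The day-0 points of several genes, Idi1, Lss and Fads1 among them, spread over more than 1 log2 unit, those of Elovl3, Scd3 and Mvd the most.

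Among the mevalonate steps, the early kinase and the farnesyl diphosphate synthase fell while the isomerase between them was higher under both inhibitors. Fdps makes farnesyl diphosphate, the last intermediate shared with other isoprenoids. At day 0 its values lay between 9.50 and 10.26 with a median of 9.76. At day 5 they were 8.52 and 8.52 under vehicle, 9.27 and 9.09 under ruxolitinib, and 9.55, 8.92 and 8.70 in tofacitinib mice 7, 8 and 9. Both vehicle arrays lay below all others, the ruxolitinib arrays lay below all of day 0, and the array of mouse 7 alone overlapped day 0. Fdps fell by 1.27 ± 0.20 under vehicle (adjusted p = 0.000149), by 0.61 ± 0.20 under ruxolitinib (0.0265) and by 0.75 ± 0.17 under tofacitinib (0.00224). Within each of the 7 mice with both biopsies it was lower on day 5. The ruxolitinib call was lost with the fixed mouse block (adjusted p = 0.0882), with day-0 arrays of the same arm only (0.0675) and without ruxolitinib mouse 4 (0.0915) or 6 (0.191).

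Mvk, the kinase that starts the use of mevalonate, had day-0 values between 8.10 and 8.56 with a median of 8.37. Its day-5 values were 7.23 and 6.71 under vehicle, 8.37 and 7.20 under ruxolitinib, and 8.17, 7.71 and 7.10 under tofacitinib. The vehicle arrays lay below all of day 0, and in each inhibitor group 1 array (mice 4 and 7) lay within the day-0 range. Mvk fell by 1.37 ± 0.27 under vehicle (adjusted p = 0.000887) and by 0.70 ± 0.23 under tofacitinib (0.0205), and the ruxolitinib difference of -0.59 ± 0.27 was not called (0.103). All 7 mice had a lower value on day 5. A further probe set of Mvk, with lower values, differed by -0.45, 0.005 and -0.23 under vehicle, ruxolitinib and tofacitinib. The tofacitinib call was lost with the fixed mouse block (0.123), without mouse 9 at day 5 (-0.42, 0.193) or mouse 8 (-0.73, 0.0536) and without day-0 mice 3, 8 and 9 (-0.69, 0.0579). Under ruxolitinib the difference turned on the arrays: Mvk was called lower without mouse 4 at day 5 (-1.17, 0.0168), and without mouse 6 the difference was -0.02.

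Idi1, the isomerase of isopentenyl diphosphate, lay between 10.47 and 11.69 at day 0, with a median of 11.45. At day 5 it stood at 11.58 and 11.58 under vehicle, 12.15 and 11.83 under ruxolitinib, and 11.99, 11.96 and 11.84 under tofacitinib. All 5 inhibitor arrays lay above all day-0 arrays and above both vehicle arrays, which themselves fell within day 0. Idi1 rose by 0.72 ± 0.27 under ruxolitinib (adjusted p = 0.0489) and 0.71 ± 0.23 under tofacitinib (0.0172), with 0.34 ± 0.27 under vehicle (0.299). The ruxolitinib call lay close to the threshold and held in 11 of 25 alternatives; the fixed mouse block ended it (0.51, adjusted p = 0.328), as did leaving out ruxolitinib mouse 4 (0.55, 0.314) or 6 (0.86, 0.127). The tofacitinib call was lost without mouse 8 (0.67, 0.069) or 9 (0.74, 0.0565) at day 5. Without the 3 day-0 arrays that were lowest for this gene (mice 3, 8 and 9) the rises were 0.47 under ruxolitinib and 0.40 under tofacitinib. Both were smaller and called, but leaving out the lowest arrays narrows the day-0 spread, so these calls add no support. A further probe set of Idi1 differed from day 0 by 0.74, 1.04 and 1.03 under vehicle, ruxolitinib and tofacitinib. Its difference under vehicle was thus larger than that of the probe set used.

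Pmvk, the next kinase after Mvk, ranged from 9.88 to 10.36 at day 0 (median 10.06). Its day-5 values were 9.83 and 10.25 under vehicle, 10.54 and 10.39 under ruxolitinib and 10.65, 10.33 and 10.62 under tofacitinib. The inhibitor arrays lay above the day-0 range, except that of mouse 8 just inside it. Pmvk rose by 0.44 ± 0.13 under tofacitinib (adjusted p = 0.0151), while 0.34 ± 0.16 under ruxolitinib (0.109) and -0.04 ± 0.16 under vehicle (0.833) were not called. The tofacitinib call was lost without mouse 9 at day 5 (0.39, 0.0843) and without day-0 mice 3, 8 and 9 (0.34, 0.0696). Hmgcs1, the synthase that feeds the pathway, differed by -0.20 ± 0.10, 0.07 ± 0.10 and 0.00 ± 0.08 under vehicle, ruxolitinib and tofacitinib. Mvd, the decarboxylase that makes isopentenyl diphosphate, differed by 0.08 ± 0.38, 0.62 ± 0.38 and 0.57 ± 0.32. Neither was called in any of the 3 comparisons, but with the fixed mouse block Mvd was called higher under tofacitinib (0.94, 0.0481). A further probe set of Hmgcs1 with lower values fell by 1.20 under vehicle, 0.89 under ruxolitinib and 1.02 under tofacitinib, and with the mean of its probe sets Hmgcs1 was called lower under vehicle (-0.46, adjusted p = 0.00439).

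**Figure D3:**
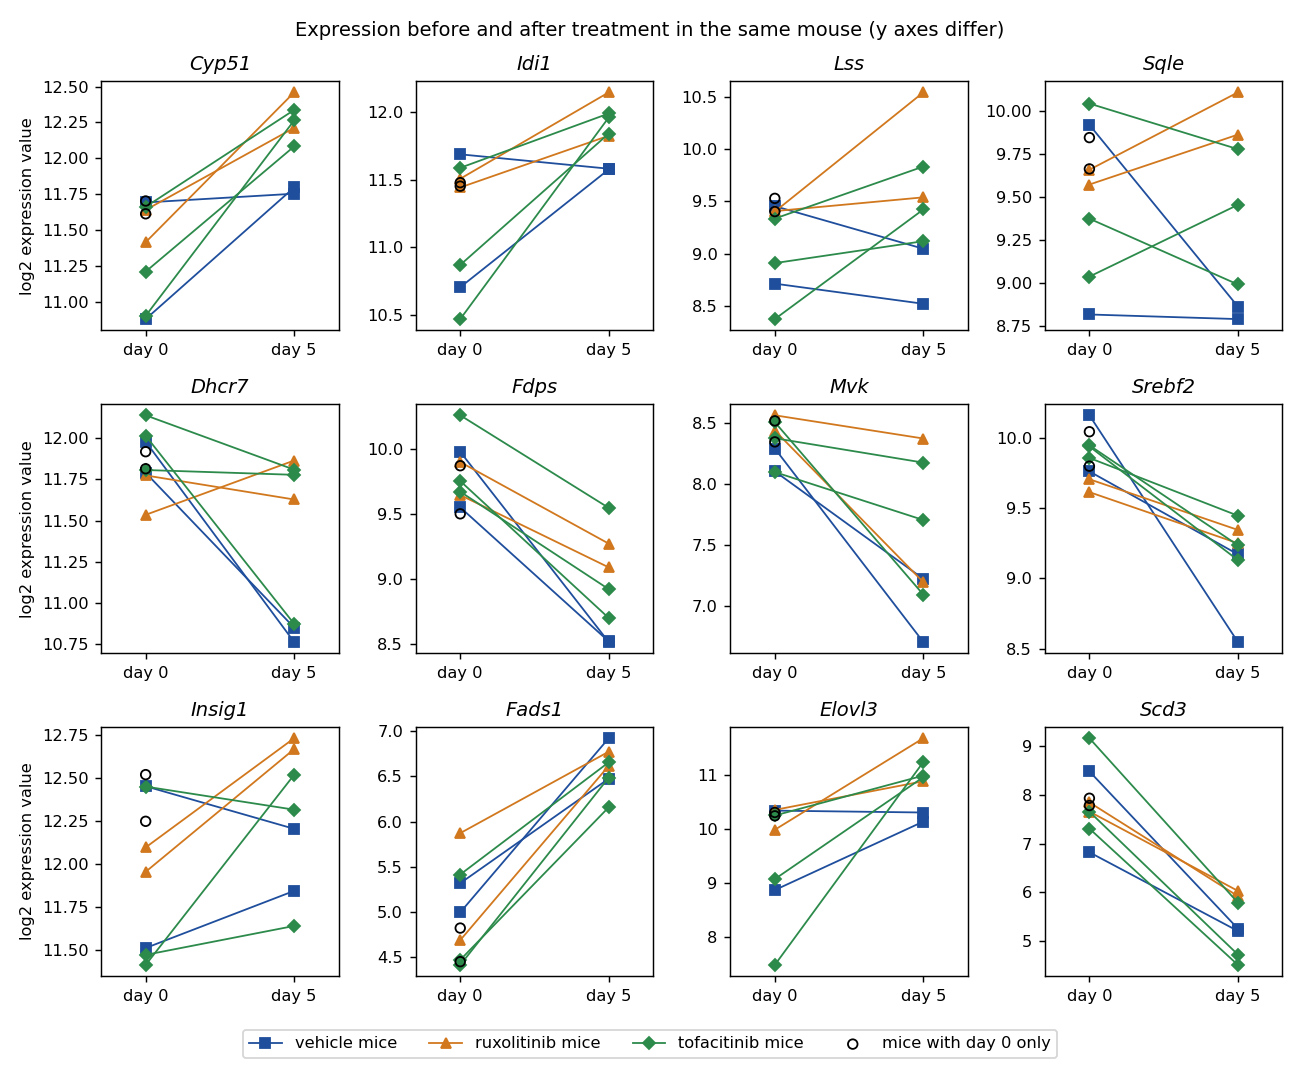
Log2 expression value on day 0 and day 5 for 12 genes, with a line joining the 2 biopsies of a mouse (squares vehicle, triangles ruxolitinib, diamonds tofacitinib) and open circles for the 2 mice with a day-0 array only. Fdps, Mvk, Srebf2 and Scd3 fell and Fads1 and Cyp51 rose in all 7 mice, and mice 3, 8 and 9 start lowest for Cyp51, Idi1, Lss, Sqle, Insig1, Elovl3 and Scd3.

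Of the 12 genes of the squalene and sterol ring steps, 4 fell and 0 rose under vehicle, 2 rose and 0 fell under ruxolitinib, and 2 rose and 1 fell under tofacitinib. All genes gave 28.9% lower and 22.2% higher, 12.5% higher and 21.4% lower, and 22.7% higher and 27.4% lower in the same order. Cyp51, the demethylase of lanosterol, gave the clearest rise. Day-0 values lay between 10.88 and 11.70 with a median of 11.61. At day 5 Cyp51 stood at 11.75 and 11.80 under vehicle, 12.46 and 12.21 under ruxolitinib, and 12.34, 12.26 and 12.08 under tofacitinib. All 7 day-5 arrays lay above the highest day-0 array, the vehicle arrays narrowly and the inhibitor arrays by more. Cyp51 rose by 0.91 ± 0.21 under ruxolitinib (adjusted p = 0.00469) and 0.83 ± 0.18 under tofacitinib (0.00189), and differed by 0.37 ± 0.21 under vehicle (0.153). Without day-0 mice 3, 8 and 9, its lowest 3, the differences were 0.74 and 0.61 under the inhibitors and 0.15 under vehicle. Both inhibitor differences were called, which adds no support, as leaving out the lowest arrays narrows the day-0 spread. The ruxolitinib call was lost with the fixed mouse block (0.81, adjusted p = 0.104) and without mouse 4 at day 5 (0.76, 0.0829). Its other 2 probe sets moved the same way.

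Lss closes squalene epoxide into lanosterol. It lay between 8.37 and 9.53 at day 0 (median 9.40), and at 9.05 and 8.52 under vehicle, 10.54 and 9.54 under ruxolitinib and 9.83, 9.42 and 9.12 under tofacitinib. The array of ruxolitinib mouse 4 stood well above all other arrays. Lss rose by 0.85 ± 0.30 under ruxolitinib (adjusted p = 0.0423), and without mouse 4 at day 5 the difference was 0.33 (0.557). The fixed mouse block also ended the call (0.64, 0.201), as did the mean of its probe sets (0.65, 0.0896). It was lost too with day-0 arrays of the same arm only (0.64, 0.183) and without day-0 mice 3, 8 and 9 (0.64, 0.0586). In all, the call held in 15 of 25 alternatives. A further probe set of Lss differed by -0.20, 0.97 and 0.47 under vehicle, ruxolitinib and tofacitinib, and another by -0.53, 0.15 and -0.10. Differences of -0.38 ± 0.30 under vehicle (0.31) and 0.32 ± 0.26 under tofacitinib (0.316) were not called.

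Hsd17b7, a ketoreductase of the ring steps, lay between 9.85 and 10.65 at day 0 with a median of 10.56. Day-5 values were 10.65 and 10.64 under vehicle, 11.35 and 10.63 under ruxolitinib and 11.16, 10.98 and 10.63 under tofacitinib. Of the day-5 arrays, mice 4, 7 and 8 lay clearly above day 0 and the others at its upper edge. Hsd17b7 rose by 0.56 ± 0.20 under tofacitinib (adjusted p = 0.0275), a call lost without the tofacitinib array of mouse 7 (0.51, 0.0712) or 8 (0.52, 0.0993), without day-0 mice 3, 8 and 9 (0.35, 0.0916) and with the mean of its probe sets (0.43, 0.123). It differed by 0.59 ± 0.23 under ruxolitinib (0.0617) and 0.29 ± 0.23 under vehicle (0.313). Without ruxolitinib mouse 6 the ruxolitinib difference was called (0.93, 0.042), as it was with the mean of its probe sets (0.86, 0.0204).

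The genes that fell under vehicle in these steps were Dhcr7, Nsdhl, Sqle and Ebp. Dhcr7, the reductase that finishes cholesterol, ranged from 11.54 to 12.14 at day 0 (median 11.81). It stood at 10.85 and 10.76 under vehicle, 11.86 and 11.63 under ruxolitinib, and 11.78, 11.81 and 10.87 under tofacitinib. Both vehicle arrays and that of tofacitinib mouse 9 lay below every other array, and the other inhibitor arrays lay within day 0. Dhcr7 fell by 1.06 ± 0.20 under vehicle (adjusted p = 0.000737), with -0.10 ± 0.20 under ruxolitinib (0.728) and -0.39 ± 0.17 under tofacitinib (0.0701). It was called lower under tofacitinib too without the tofacitinib array of mouse 7 (-0.57, 0.0198) or 8 (-0.54, 0.0409).

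Nsdhl, a dehydrogenase of the ring steps, lay between 8.60 and 9.44 at day 0 (median 9.04). It stood at 8.45 and 8.10 under vehicle, 9.31 and 8.66 under ruxolitinib and 8.93, 8.65 and 7.9998 under tofacitinib. The vehicle arrays and that of mouse 9 lay below all of day 0. Nsdhl fell by 0.80 ± 0.24 under vehicle (adjusted p = 0.0126) and 0.54 ± 0.20 under tofacitinib (0.0399), with -0.11 ± 0.24 under ruxolitinib (0.74). The tofacitinib call held in 15 of 25 alternatives. It was lost without mouse 9 (-0.29, 0.325) or 8 (-0.61, 0.0666) at day 5 and with the fixed mouse block (-0.40, 0.131). Day-0 arrays of the same arm only (-0.40, 0.204) ended it too. The vehicle call was lost without vehicle mouse 3 (-0.62).

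Sqle, the epoxidase of squalene and a slow step of the pathway, ranged from 8.82 to 10.04 at day 0 with a median of 9.66. Its day-5 values were 8.86 and 8.79 under vehicle, 10.11 and 9.86 under ruxolitinib and 9.78, 9.45 and 8.99 under tofacitinib. The vehicle arrays stood at the bottom of the day-0 range and the ruxolitinib arrays at its top. Sqle fell by 0.70 ± 0.27 under vehicle (adjusted p = 0.0388), a call that held in 16 of 25 alternatives. It was lost with vehicle mouse 2 (-0.77) or 3 (-0.68) left out and with the fixed mouse block (-0.54, 0.198). Day-0 arrays of the same arm only (-0.69, 0.0958) and arrays centred on their median (-0.62, 0.056) ended it too. Sqle differed by 0.43 ± 0.27 under ruxolitinib (0.22) and -0.13 ± 0.23 under tofacitinib (0.639).

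Ebp, the isomerase that moves the ring's double bond, lay between 9.54 and 9.96 at day 0 (median 9.82). It stood at 9.05 and 9.30 under vehicle, 9.95 and 9.84 under ruxolitinib and 9.995, 9.34 and 9.39 under tofacitinib. The ruxolitinib arrays lay within day 0, the vehicle arrays and those of mice 8 and 9 below it. Ebp fell by 0.62 ± 0.16 under vehicle (adjusted p = 0.00559), not called with the fixed mouse block (-0.52, 0.101) or without vehicle mouse 2 (-0.50, 0.104). The differences under ruxolitinib (0.09 ± 0.16) and tofacitinib (-0.23 ± 0.14) were not called, and without mouse 7 at day 5 Ebp was called lower under tofacitinib (-0.44, 0.00767).

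Msmo1, the methyl sterol oxidase, ranged from 10.72 to 11.93 at day 0 (median 11.72) and stood at 11.38 and 11.30 under vehicle, 12.28 and 12.17 under ruxolitinib and 11.82, 12.00 and 11.35 under tofacitinib. Both ruxolitinib arrays lay above all of day 0, but the difference of 0.69 ± 0.29 was not called (adjusted p = 0.0785), nor were -0.16 ± 0.29 under vehicle and 0.24 ± 0.25 under tofacitinib. Without day-0 mice 3, 8 and 9, its lowest 3, Msmo1 was called under ruxolitinib (0.45, 0.0446) and called lower under vehicle (-0.47, 0.0315). These calls add no support, as leaving out the lowest arrays narrows the day-0 spread. Sc5d, the lathosterol desaturase, ranged from 8.68 to 10.27 at day 0 (median 9.17). It stood at 8.56 and 8.80 under vehicle, 8.67 and 9.20 under ruxolitinib and 8.90, 8.24 and 8.90 under tofacitinib. Its differences of -0.56 ± 0.32, -0.30 ± 0.32 and -0.58 ± 0.27 were not called, and a further probe set of Sc5d moved otherwise (0.52, -0.43 and 0.20).

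The remaining ring-step genes were not called in any of the 3 comparisons. Fdft1, the squalene synthase, differed by -0.11 ± 0.19, 0.04 ± 0.19 and 0.16 ± 0.16 under vehicle, ruxolitinib and tofacitinib. Tm7sf2 and Lbr, a pair of sterol reductases, differed by -0.13 ± 0.23, 0.14 ± 0.23 and 0.07 ± 0.20, and by -0.06 ± 0.14, 0.11 ± 0.14 and -0.13 ± 0.12.

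**Figure D4:**
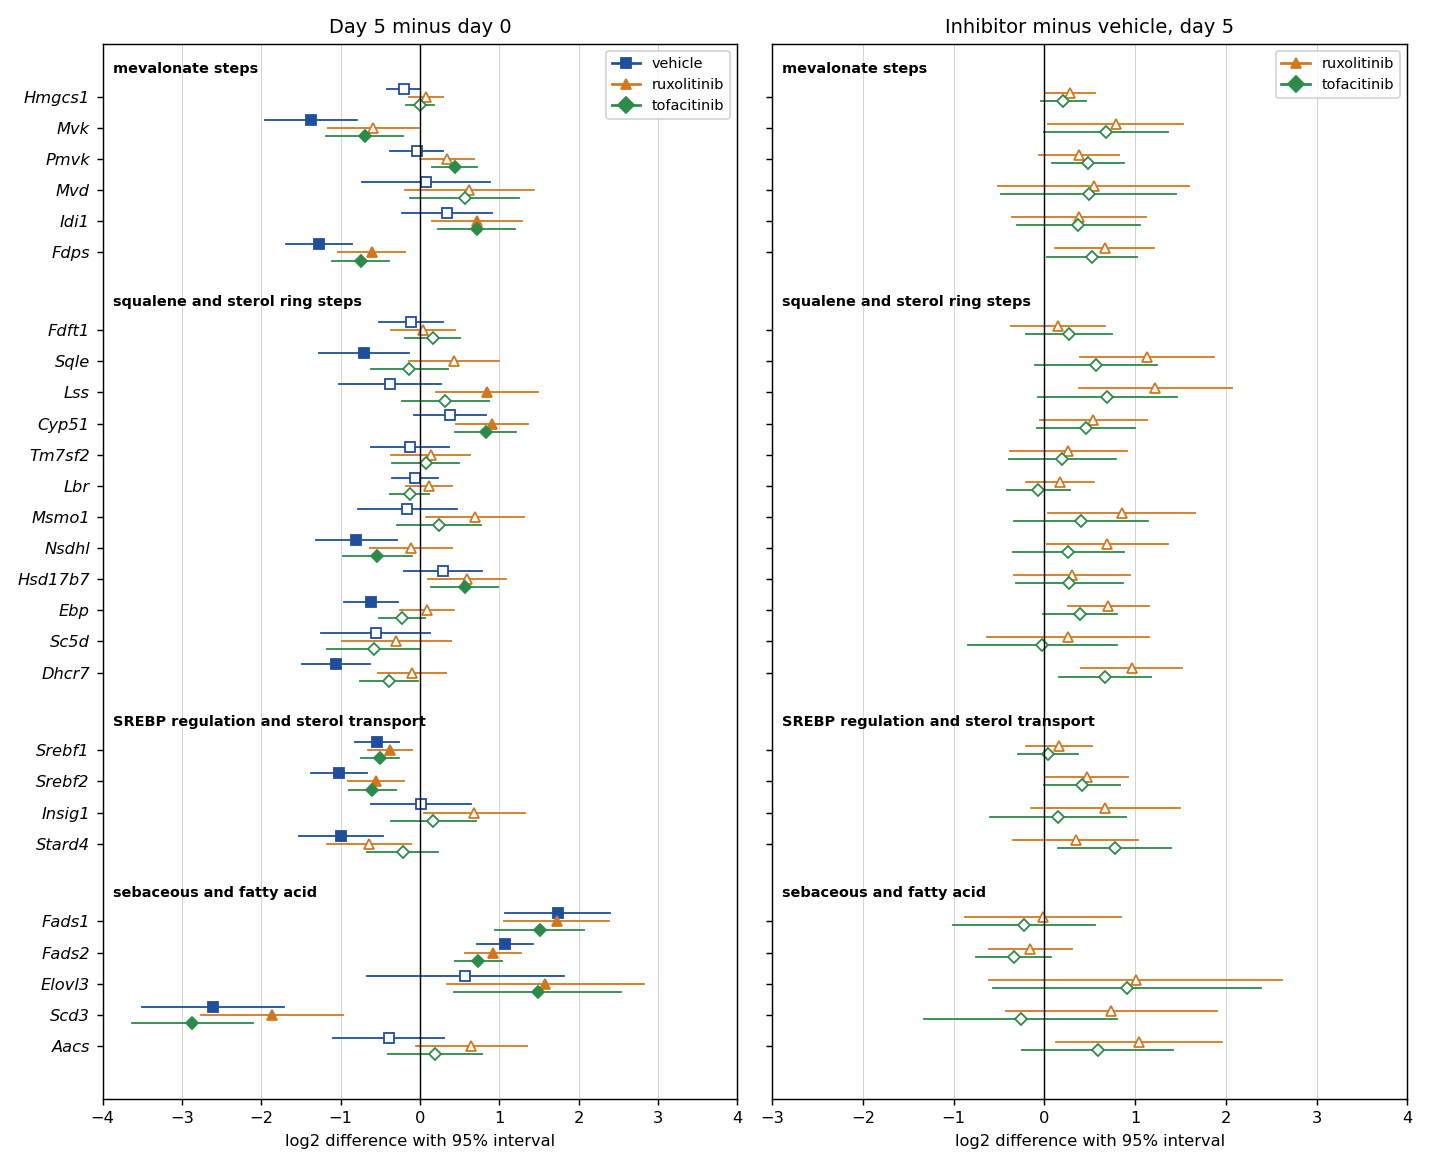
Log2 difference (horizontal axis) with its 95% interval for the 27 genes, day 5 minus day 0 on the left (squares vehicle, triangles ruxolitinib, diamonds tofacitinib) and inhibitor minus vehicle at day 5 on the right; filled symbols passed an adjusted p of 0.05. On the right no symbol is filled, and all 22 ruxolitinib points of the sterol pathway lie above 0.

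Both SREBP genes fell in all 3 arms, including those in which Cyp51 and Idi1 rose. Srebf2 had day-0 values from 9.61 to 10.16 (median 9.86), and stood at 9.17 and 8.55 under vehicle, 9.25 and 9.34 under ruxolitinib and 9.44, 9.23 and 9.13 under tofacitinib. All 7 day-5 arrays lay below the lowest day-0 array. It fell by 1.02 ± 0.16 under vehicle (adjusted p = 0.000217), 0.55 ± 0.16 under ruxolitinib (0.0186) and 0.60 ± 0.14 under tofacitinib (0.00289). The ruxolitinib call was lost with the fixed mouse block (-0.36, 0.391), without day-0 mice 3, 8 and 9 (-0.45, 0.0552), with day-0 arrays of the same arm only (-0.48, 0.0942) and without ruxolitinib mouse 4 (-0.50, 0.148) or 6 (-0.58, 0.107). A further probe set of Srebf2 fell by 1.42, 1.21 and 1.22.

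Srebf1 lay between 9.74 and 10.19 at day 0 (median 9.96). It stood at 9.47 and 9.43 under vehicle, 9.75 and 9.49 under ruxolitinib and 9.71, 9.33 and 9.42 under tofacitinib. Here 6 of the 7 day-5 arrays lay below all of day 0, and that of mouse 4 lay level with the lowest. Srebf1 fell by 0.54 ± 0.13 under vehicle (adjusted p = 0.00377), 0.38 ± 0.13 under ruxolitinib (0.0375) and 0.50 ± 0.11 under tofacitinib (0.00212), and was lower on day 5 in all 7 mice. With the fixed mouse block the vehicle (0.0704) and ruxolitinib (0.186) calls were lost, and with arrays centred on their median the ruxolitinib call was lost (-0.31, 0.0615). The ruxolitinib call held in 16 of 25 alternatives, and without ruxolitinib mouse 6 the difference was -0.24 (0.37).

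Insig1, itself a target of SREBP that holds SCAP back, ranged from 11.41 to 12.52 at day 0 (median 12.10). It stood at 12.21 and 11.84 under vehicle, 12.73 and 12.67 under ruxolitinib and 12.32, 12.52 and 11.64 under tofacitinib. Both ruxolitinib arrays lay above all others, yet 0.68 ± 0.30 was not called (adjusted p = 0.086), nor were 0.01 ± 0.30 under vehicle and 0.17 ± 0.25 under tofacitinib. Stard4, a carrier of cholesterol between membranes, ranged from 7.77 to 8.64 at day 0 (median 8.27) and stood at 7.24 and 7.24 under vehicle, 7.52 and 7.64 under ruxolitinib and 8.75, 7.50 and 7.89 under tofacitinib. It fell by 0.99 ± 0.25 under vehicle (0.00443, but 0.084 with the fixed mouse block). Its differences of -0.65 ± 0.25 under ruxolitinib (0.0559) and -0.22 ± 0.21 under tofacitinib (0.4) were not called, the first being called without tofacitinib mouse 7 (-0.62, 0.0152) or 8 (-0.65, 0.0312) in the fit. The tofacitinib array of mouse 7 was the highest of all 16 arrays, and without it Stard4 was called lower under tofacitinib (-0.61, 0.0125). The probe sets of Stard4 disagreed: another one fell by 0.42 under vehicle and was higher by 1.54 and 1.26 under ruxolitinib and tofacitinib, and one more fell by 2.31, 1.75 and 1.63.

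The sebaceous and fatty acid genes gave the widest differences of the list, in both directions, and the called ones kept their sign in all 3 arms. Fads1 and Fads2, desaturases that make long polyunsaturated fatty acids, rose, and Scd3, a stearoyl-CoA desaturase typical of sebaceous glands, fell. Under vehicle 2 of 5 rose and 1 fell, and under each inhibitor 3 rose and 1 fell. All genes gave 22.2% higher and 28.9% lower under vehicle, 12.5% and 21.4% under ruxolitinib and 22.7% and 27.4% under tofacitinib.

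Fads1 lay between 4.42 and 5.87 at day 0 with a median of 4.82. It stood at 6.48 and 6.92 under vehicle, 6.77 and 6.62 under ruxolitinib and 6.66, 6.16 and 6.49 under tofacitinib. Every day-5 array lay above every day-0 array. Fads1 rose by 1.74 ± 0.31 under vehicle (adjusted p = 0.000465), 1.72 ± 0.31 under ruxolitinib (0.000795) and 1.51 ± 0.26 under tofacitinib (0.000392). Fads2 lay between 4.08 and 4.65 at day 0 (median 4.23), and at 5.16 and 5.55 under vehicle, 5.10 and 5.33 under ruxolitinib and 5.26, 4.78 and 5.01 under tofacitinib. Its groups did not overlap either. Fads2 rose by 1.07 ± 0.16 (0.000137), 0.92 ± 0.16 (0.000751) and 0.73 ± 0.14 (0.000736), and the ruxolitinib call missed the threshold with the fixed mouse block (0.83, 0.0563).

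Scd3 ranged from 6.82 to 9.17 at day 0 with a median of 7.78. It stood at 5.25 and 5.20 under vehicle, 6.03 and 5.92 under ruxolitinib and 5.79, 4.72 and 4.51 under tofacitinib, all below the lowest day-0 array. Scd3 fell by 2.60 ± 0.42 under vehicle (adjusted p = 0.000208), 1.87 ± 0.42 under ruxolitinib (0.00361) and 2.87 ± 0.36 under tofacitinib (2.42e-05), the largest changes of the 27 genes. Its second probe set fell by 2.94, 1.85 and 2.81.

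Elovl3, an elongase of saturated fatty acids expressed in sebaceous glands and brown fat, went against Scd3. Its day-0 values lay between 7.48 (mouse 8) and 10.36, with a median of 10.25. At day 5 it stood at 10.31 and 10.14 under vehicle, 11.69 and 10.89 under ruxolitinib and 10.99, 11.25 and 10.96 under tofacitinib. The vehicle arrays lay among the upper day-0 arrays, and the 5 inhibitor arrays lay above all of day 0 and above vehicle. Elovl3 rose by 1.58 ± 0.58 under ruxolitinib (adjusted p = 0.048) and 1.48 ± 0.49 under tofacitinib (0.022), with 0.57 ± 0.58 under vehicle (0.426). Without day-0 mice 3, 8 and 9, its lowest 3 at day 0, the rises were 1.06 (0.00175) and 0.82 (0.0037). The vehicle difference was then -0.03. Leaving out the lowest arrays made the rises smaller but narrows the day-0 spread, so the smaller adjusted p adds no support. The ruxolitinib call held in 11 of 25 alternatives, and was lost with the fixed mouse block (1.12, 0.317) and without ruxolitinib mouse 4 (1.12, 0.345) or 6 (1.98, 0.108). The tofacitinib call was lost without mouse 8 (1.32, 0.0954) or 9 (1.48, 0.0771) at day 5. Aacs, which activates acetoacetate for lipid synthesis, differed by -0.40 ± 0.33, 0.65 ± 0.33 and 0.19 ± 0.28 under vehicle, ruxolitinib and tofacitinib. It was not called, except lower under vehicle without day-0 mice 3, 8 and 9, again the lowest 3 (-0.69, 0.0415).

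Between the day-5 groups none of the 27 genes was called, although nearly all sterol pathway genes had higher values under the inhibitors than under vehicle. Over all genes, 0.405% were called higher and 0.116% lower in ruxolitinib against vehicle, and 0.165% and 0% in tofacitinib against vehicle. In both inhibitors against vehicle, where the average of the inhibitor group means is set against vehicle, the shares were 0.836% and 0.0993%. In tofacitinib against ruxolitinib they were 0% and 0.0248%. At an unadjusted p under 0.05 in limma, 11 of the 27 genes passed in the first comparison, 4 in the second, 10 in the third and 0 in the fourth, against 15.7%, 8.4%, 13.9% and 5.7% of all genes. Of the 22 sterol pathway genes, 22 had a difference above 0 in ruxolitinib against vehicle, with a median of 0.50, and 20 in tofacitinib against vehicle, with a median of 0.39. Over all genes the shares above 0 were 49.9% and 51.1%, with medians of 0.00 and 0.01. Some other lists lay on the same side, with 10 of 10 sebaceous gland markers above 0 (medians of 0.65 and 0.36 under ruxolitinib and tofacitinib). Differentiated keratinocyte markers did so in 12 of 12 (0.72 and 0.71) and fatty acid synthesis genes in 14 of 16 (0.27 and 0.22). For fibroblast markers it was 10 and 9 of 10 (0.46 and 0.40). For basal keratinocyte markers it was 11 and 10 of 11 (0.13 and 0.14). Adipocyte markers were above 0 in 7 and 11 of 12 (0.05 and 0.29). Other lists went the other way or were mixed. Skeletal muscle markers were above 0 in 0 and 1 of 14 (-0.15 and -0.06). Endothelial markers were so in 0 and 3 of 10 (-0.55 and -0.28), and macrophage markers in 4 of 9 (-0.04 and -0.11). In 17 of the 22 sterol pathway genes both ruxolitinib arrays lay above both vehicle arrays, against 25.4% of all genes, and in 11 all 5 inhibitor arrays did, against 8.72%. These differences share the same 2 vehicle arrays, so the genes are not independent counts of a direction.

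The nearest to a call was Dhcr7, higher by 0.96 ± 0.26 in ruxolitinib against vehicle (adjusted p = 0.0979), by 0.67 ± 0.24 in tofacitinib against vehicle (0.355) and by 0.81 ± 0.22 in both inhibitors against vehicle (0.0951). Without the tofacitinib array of mouse 9, all 3 were called (0.94, 0.98 and 0.96, with adjusted p of 0.024, 0.0226 and 0.00652). That array was the only inhibitor array that stood with vehicle for Dhcr7, so leaving it out favours a call and adds no support. It is no part of ruxolitinib against vehicle, where the difference itself hardly moved. In ruxolitinib against vehicle Sqle differed by 1.13 with a 95% interval of 0.40 to 1.87 (adjusted p = 0.136). Lss differed by 1.22 with 0.38 to 2.06 (0.152), and by 0.70 (0.507) without the ruxolitinib array of mouse 4. Ebp differed by 0.71 with 0.26 to 1.15 (0.121), and was called there only without the tofacitinib array of mouse 7 (0.68, 0.0439). For tofacitinib against vehicle, Stard4 differed by 0.77 with 0.15 to 1.40 (0.403), or by 0.37 (0.878) without the array of mouse 7, and Pmvk by 0.48 with 0.08 to 0.88 (0.438). Among the fatty acid genes, Fads1 differed from vehicle by -0.02 with an interval of -0.87 to 0.84 under ruxolitinib and -0.23 with -1.01 to 0.56 under tofacitinib. Elovl3 differed by 1.01 with -0.61 to 2.62 and by 0.91 with -0.56 to 2.38. These intervals leave room for differences of either sign in both genes.

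The compounds differ in chemical structure and share their target family, and their doses are not given here, so the values are set side by side. In tofacitinib against ruxolitinib 3 of 22 sterol pathway differences were above 0, with a median of -0.12, against 53.8% of all genes. None of the 27 genes passed even an unadjusted p under 0.05 in limma, against 5.67% of all genes. Among the 27, Scd3 had the smallest p, at -0.999 with a 95% interval of -2.06 to 0.06 (adjusted p = 0.886). Cyp51 differed by -0.08 with -0.62 to 0.46 and Idi1 by -0.01 with -0.68 to 0.67, which does not show that the compounds act alike.

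The day-0 arrays differed among themselves for these genes before any treatment. Mice 3, 8 and 9 were the lowest 3 of the 9 in 13 of the 27 genes, against 4.67% of all genes. The 13 were 10 of 22 sterol pathway genes (Mvd, Idi1, Fdft1, Sqle, Lss, Cyp51, Msmo1, Nsdhl, Hsd17b7 and Insig1) and Elovl3, Scd3 and Aacs. Mouse 3 later received vehicle and mice 8 and 9 tofacitinib. The mean over the 22 sterol pathway genes ranged from 9.85 in mouse 8 to 10.39 in mouse 7 at day 0, and was 9.70 and 9.80 under vehicle, 10.16 and 10.46 under ruxolitinib, and 9.87 to 10.38 under tofacitinib. No day-0 array was apart from the others by Dixon's criterion in any of the 27 genes. Left out together, these 3 arrays changed the count of called sterol pathway genes from 9 to 10 under vehicle, 6 to 5 under ruxolitinib and 9 to 6 under tofacitinib.

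The same 3 mice were also lowest at day 0 in the mean of 10 sebaceous gland markers, and with mouse 1 in that of 12 adipocyte markers, so that these lists moved together with the sterol genes before treatment. Mice 1, 3, 8 and 9 were likewise the lowest 4 for skeletal muscle and endothelial markers and the highest 4 for differentiated keratinocyte markers, and mice 3, 8 and 9 the highest 3 for basal keratinocyte markers. The sebaceous gland mean ranged from 10.85 to 11.70 at day 0, and lay at 10.82 to 10.90 under vehicle, 11.47 to 11.55 under ruxolitinib and 10.996 to 11.42 under tofacitinib. Of its 10 measured genes 4 fell under vehicle, 1 under ruxolitinib and 2 under tofacitinib, and 0 rose, where all genes gave 28.9%, 21.4% and 27.4% lower. Acsbg1, an acyl-CoA synthetase, fell in all 3 arms (-1.49, -0.57 and -1.07). Krt79, a keratin of the gland's duct, fell under vehicle and tofacitinib (-1.14 and -0.58), and Cidea, a lipid droplet protein, under vehicle (-1.33), as did Far2 (-0.71), which makes fatty alcohols. The part of gland content in the values of Scd3, Elovl3 and the sterol genes was not tested.

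**Figure D5:**
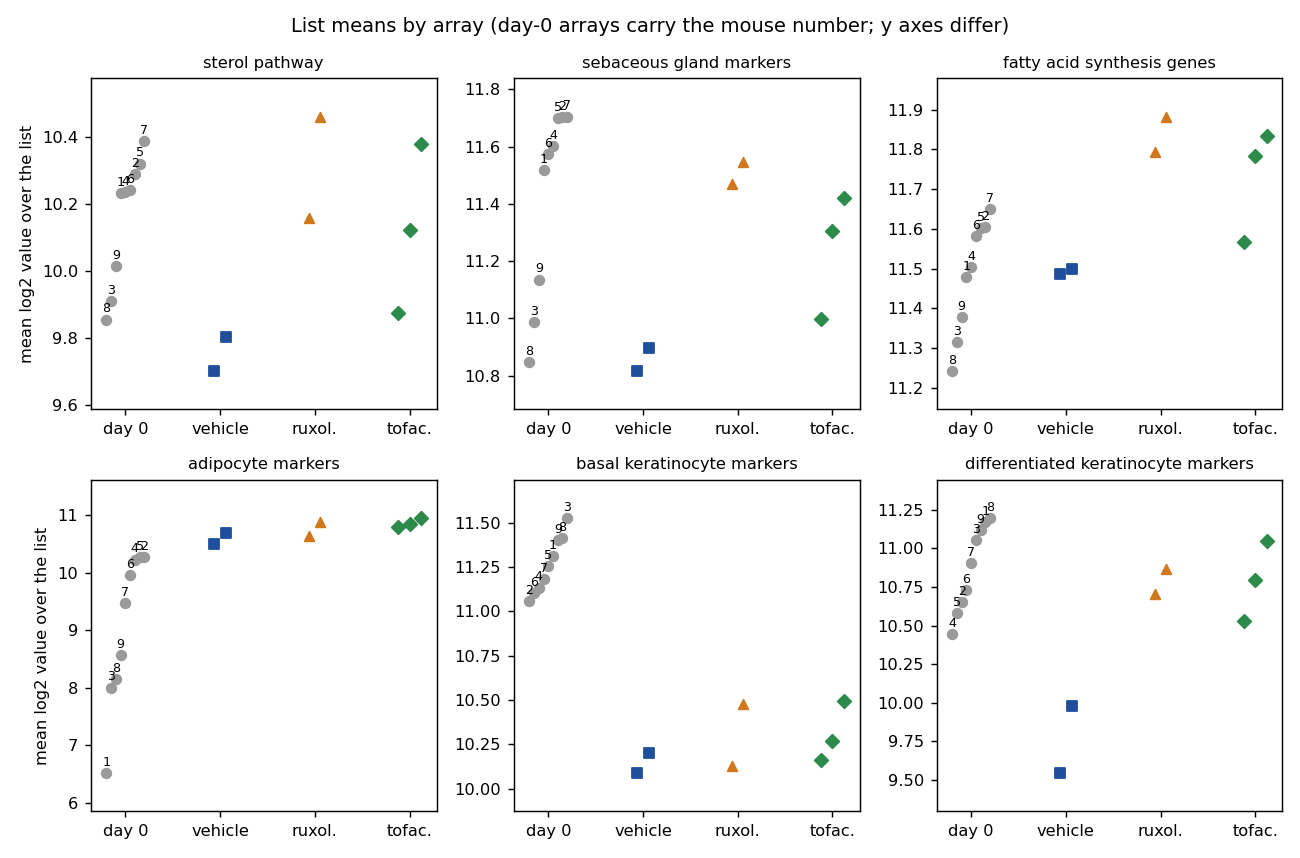
Mean log2 value over each list (vertical axis, scales differ) in every array: day 0 with its mouse number, then vehicle, ruxolitinib (ruxol.) and tofacitinib (tofac.) at day 5. Mice 3, 8 and 9 are lowest at day 0 for the sterol pathway, sebaceous gland markers and fatty acid synthesis genes, and the vehicle arrays stand lowest of all for the sterol pathway and the differentiated keratinocyte markers.

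Other genes around the pathway moved as follows. Of 11 tested sterol synthesis and uptake genes outside the list, 4 fell under vehicle, 1 rose and 2 fell under ruxolitinib, and 1 rose and 3 fell under tofacitinib. The shares of all genes were 22.2% higher and 28.9% lower under vehicle, 12.5% and 21.4% under ruxolitinib and 22.7% and 27.4% under tofacitinib. Scap, the escort of SREBP, fell by 1.11 ± 0.14, 0.63 ± 0.14 and 0.81 ± 0.12 under vehicle, ruxolitinib and tofacitinib. Mbtps1, a protease that releases SREBP, fell by 0.92 ± 0.13, 0.56 ± 0.13 and 0.61 ± 0.11. Npc1, which exports cholesterol from lysosomes, fell under vehicle (-0.77 ± 0.19) and tofacitinib (-0.62 ± 0.16) and differed by -0.41 ± 0.19 under ruxolitinib. The others called were Erg28 (-0.61, vehicle), Acly (0.34, ruxolitinib) and Acss2 (0.74, tofacitinib), the last pair being sources of acetyl-CoA.

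Of 7 tested liver X receptor targets and efflux genes, which answer to sterol excess, 3 fell in each arm and 1, 2 and 3 rose under vehicle, ruxolitinib and tofacitinib, against 28.9%, 21.4% and 27.4% of all genes lower and 22.2%, 12.5% and 22.7% higher. Apoe, the apolipoprotein, fell by 1.38 ± 0.18, 0.82 ± 0.18 and 0.98 ± 0.15. Abcg1, a sterol exporter, fell by 1.25 ± 0.31, 1.27 ± 0.31 and 1.53 ± 0.26, and Mylip, the ligase that degrades the LDL receptor, by 1.20 ± 0.32, 1.31 ± 0.32 and 1.29 ± 0.27. Nr1h3, a liver X receptor, rose under vehicle (1.04) and tofacitinib (0.98), while Abca1 and Pltp rose under ruxolitinib (0.77 and 0.74) and tofacitinib (0.61 and 0.63). Members of this list therefore moved in both directions in each arm.

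Of 16 tested fatty acid synthesis genes, 1 rose and 4 fell under vehicle, 4 rose and 0 fell under ruxolitinib, and 4 rose and 1 fell under tofacitinib. Of all genes 22.2%, 12.5% and 22.7% were higher and 28.9%, 21.4% and 27.4% lower. Acsl3, an acyl-CoA synthetase, rose in all arms (0.97 ± 0.14, 0.59 ± 0.14 and 0.92 ± 0.12). Elovl7, an elongase, rose by 1.60 ± 0.30 under ruxolitinib and 1.10 ± 0.25 under tofacitinib, with 0.34 ± 0.30 under vehicle, a pattern like that of Elovl3. Elovl1, which makes very long chains, fell under vehicle (-1.12 ± 0.20) and tofacitinib (-0.63 ± 0.17). Acaca, the carboxylase that starts the synthesis, rose under both inhibitors (0.55 and 0.60), with Scd2 (0.53) under ruxolitinib and Me1 (0.39) under tofacitinib. Under vehicle Acsl5, Tecr and Hacd3 fell (-0.63, -0.45 and -0.31).

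Markers of the skin's cell types moved with the day and, in part, with the arm. All 11 tested basal keratinocyte markers fell in each arm, against 28.9%, 21.4% and 27.4% of all genes, with list means of 11.06 to 11.53 at day 0 and 10.09 to 10.49 over the day-5 arrays. Itgb4 and Col17a1, which anchor basal cells to the basement membrane, fell by 2.57, 2.40 and 2.22 and by 1.25, 1.15 and 1.21 under vehicle, ruxolitinib and tofacitinib. Krt15, a basal keratin, fell by 1.36, 0.96 and 0.95. Of 12 differentiated keratinocyte markers 8 fell under vehicle, 1 rose and 2 fell under ruxolitinib, and 1 rose and 4 fell under tofacitinib, against the same shares lower and 12.5% and 22.7% of all genes higher under the inhibitors. The mean of this list was 9.55 and 9.98 under vehicle, below the 10.53 to 11.04 of the inhibitor arrays. Cdsn, an adhesion protein of cornified cells, fell in each arm (-1.28, -0.81 and -0.59), as did Tgm1, a transglutaminase (-2.39, -1.55 and -1.51). Krt1, a suprabasal keratin, fell under vehicle (-0.95) and tofacitinib (-0.33), Dsg1a under vehicle (-1.11) and tofacitinib (-0.64), and Tgm3, another transglutaminase of the barrier, under vehicle (-2.50). Flg, the filaggrin gene, rose under ruxolitinib (1.40) and tofacitinib (1.49). In both inhibitors against vehicle, which takes the average of the inhibitor group means, Tgm3 was higher (2.87 ± 0.45, adjusted p = 0.00823). Krt1 (0.68, 0.0436) and Casp14 (1.82, 0.048) were so too, the last named after its value was seen. Taken singly, 1 of the 12 was called higher in ruxolitinib against vehicle and 0 in tofacitinib against vehicle. All genes gave 0.405% and 0.165% higher.

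Markers of fat, connective tissue, vessels, macrophages and muscle were called higher only, against 22.2%, 12.5% and 22.7% of all genes called higher under vehicle, ruxolitinib and tofacitinib. Adipocyte list means were 6.52 to 10.27 at day 0 and 10.50 to 10.95 at day 5, with 2, 2 and 5 of 12 markers higher. Lep, the leptin gene, rose by 3.20, 3.43 and 3.75 and Thrsp, a lipogenic factor, by 2.72, 2.72 and 3.09, with Pck1 (2.83), Cidec (3.12) and Lpl (0.61) rising under tofacitinib. Fibroblast markers rose in 6, 7 and 6 of 10, including the matrix genes Lum (2.40, 3.21 and 2.72) and Mfap5 (2.19, 2.96 and 1.74), and Pi16 (2.99, 3.03 and 3.16). Endothelial markers rose in 9, 9 and 10 of 10, including the receptors Flt1 (3.22, 2.93 and 2.94) and Kdr (1.04, 0.79 and 1.10) and the clotting protein gene Vwf (2.46, 1.96 and 2.20). Macrophage markers rose in 5, 4 and 4 of 9: the complement genes C1qa (1.77, 1.63 and 1.20) and C1qb (1.08, 1.21 and 1.13), the scavenger receptor Cd163 (1.63, 2.28 and 2.08), the mannose receptor Mrc1 (1.74, 2.11 and 1.36) and, under vehicle, Lyz2 (1.27). Skeletal muscle markers rose in 8, 2 and 10 of 14, among them the fast-fibre genes Actn3 (1.19, 0.73 and 1.004) and Myl1 (0.43, 0.32 and 0.42) in each arm and Pvalb under vehicle (0.50) and tofacitinib (0.39). The difference between 3′ and 5′ probe sets of 3 control transcripts, a measure of RNA integrity and amplification, was 1.42 to 1.87 at day 0, 1.98 to 2.07 under vehicle, 2.23 to 2.48 under ruxolitinib and 1.65 to 2.18 under tofacitinib. The part of cell content or RNA quality in the sterol and fatty acid results was not tested.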

How the data were processed

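Whole dorsal skin was measured on 16 Affymetrix arrays from 9 mice; per the labels, RNA was column-extracted, amplified (NuGEN Ovation) and biotin-labelled. Per the submitters' processing notes, the authors used GCRMA to turn the scans into a deposited log2 value for each probe set. Its version is not given in the sources used here. GCRMA can shrink low values, so folds of dim probe sets such as that of Fads2 may be understated.

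Of 45101 probe sets, 34958 carried 1 gene symbol, 932 several and 9211 were unlisted. Probe sets above log2 4 in at least 2 arrays were kept (20992), and each gene was read from its brightest one on average (12087 of 18194 genes; 14 of the 27 members had more than 1 kept). All genes entered 1 fit (limma 3.58.1, R 4.3.3): 4 group means, all arrays, mouse as random block (correlation 0.0982), Benjamini-Hochberg within each of 7 comparisons. By the labels, day-0 and day-5 skin came from the same animal. Its 2 arrays' deviations from their group means correlated at -0.18 to 0.18, above 0.1 in 2 of 7 pairs. Array medians lay between 3.75 and 3.94 and arrays of a day correlated at 0.978 or more. The number of arrays limits the precision. The fit was also run on simulated data that had day-0 spreads in all groups and changes in the tofacitinib group only. Detection of changes in the groups of 2 was therefore not tested.

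Members, lists and tests were chosen with earlier results of these data known. Every tested member is named with its 3 differences from day 0. Array values are given for those whose call differs between these comparisons and, of the others, the 6 sterol and 3 fatty acid members with the smallest p. In each other list the 3 genes with the smallest p against day 0 are named, and the genes behind counts of 5 or fewer. Alternatives were the block, filter, probe set rule, scaling, samples in the fit, day-0 arrays of the same arm and each array left out; leaving out the day-0 arrays of mice 3, 8 and 9 was chosen after seeing the data.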

Additional observations from a re-analysis of the deposited data

How the results depend on the processing

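No difference of any of the 27 genes reversed while called, in 7 comparisons under 23 to 25 alternatives each. With the mouse as a fixed replicate block, called sterol pathway genes went from 9 to 5 under vehicle and from 6 to 0 under ruxolitinib, and the sebaceous and fatty acid genes from 4 to 2 under ruxolitinib. Under tofacitinib sterol calls went from 9 to 8 (fallen genes from 5 to 3), and the fatty acid counts under vehicle and tofacitinib stayed at 3 and 4. Over all genes it gave 3701, 1324 and 4768 calls against 6178, 4104 and 6055. With day-0 arrays of the same arm only, the ruxolitinib sterol count was 1. Leaving out each array in turn, sterol counts ranged from 7 to 9 (vehicle), 2 to 7 (ruxolitinib) and 5 to 11 (tofacitinib), and the fatty acid counts were 3 throughout, 3 to 4 and 3 to 4. In the day-5 comparisons sterol counts ranged from 0 to 1 in ruxolitinib, tofacitinib and both inhibitors against vehicle, and all other counts stayed at 0. The lone sample left in a group of 2 is then assumed to vary like the others. Of single differences from day 0, 14, 59 and 25 results lost a call and 3, 12 and 6 gained one under vehicle, ruxolitinib and tofacitinib. Centring arrays on their median moved the share of higher calls over all genes from 43.5% to 50.6%, 36.8% to 45.1% and 45.3% to 50.7%. The causes were not tested. All 27 genes lay above the control probe sets, and the number of arrays limits the precision.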
